A study of Caenorhabditis elegans with 2 samples.

Results

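The cytosolic ribosomal protein genes of Caenorhabditis elegans were examined in a chromatin immunoprecipitation and sequencing (ChIP-seq) experiment on CEBP-2. Members were the nuclear protein-coding genes of the Ensembl annotation whose symbol starts with rpl- (large ribosomal subunit) or rps- (small subunit). There were 78 of them, 47 large-subunit and 31 small-subunit genes, among 19973 nuclear protein-coding genes. The series has 1 group, represented by 2 biological replicates, each a separate preparation of whole young adults aged 64 h whose growth had been synchronised by bleaching and L1 starvation. All animals were of strain OP331, which carries the integrated transgene wgIs331 (C48E7.11::TY1 EGFP 3xFLAG, a cebp-2 fusion from the clone P000010_F04) with unc-119(+) in an unc-119(ed3) background. The tagged protein was recovered from sonicated chromatin with an antibody against GFP. The signal is therefore that of a transgenic fusion protein in whole animals, whose tissues cannot be told apart. A control experiment, named in the labels, was not analysed here, and whether the authors called the peaks against it is not given in the sources used. No test between groups was possible.

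Ribosomal proteins assemble with ribosomal RNA into the small subunit, which reads the messenger RNA, and the large subunit, which forms the peptide bond. Their genes are among the most heavily transcribed protein-coding genes of growing animals, and several carry genes for small nucleolar RNAs (snoRNAs), guides for ribosomal RNA modification, in their introns. CEBP-2 is a bZIP transcription factor of the C/EBP family, and in worms it acts with the bZIP protein ZIP-2 in the response to blocked translation. C/EBP proteins are known to bind sites of the form TTRCRYAA, in which R is A or G and Y is C or T.

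The files hold peaks called by the authors and no read counts, so depth per replicate is unknown. The main list has 1419 peaks called on both replicates together, and the ranked list from which all of them come has 112494. Replicates 1 and 2 have own ranked lists of 52508 and 70327 peaks and own thresholded lists of 254 and 386 peaks. A gene was counted when a peak's summit fell in its promoter window, which ran from 1000 bp upstream of the 5' end to 200 bp past it. The authors' peak caller gave each peak a signal value, on a scale that is not stated, and a score with a ceiling of 1000. These are the authors' own values, used only within 1 list, and intervals on shares are 95% Wilson intervals that cover the counting of genes or windows only.

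The promoter windows of 14 of the 78 ribosomal protein genes held a summit of the main list, 17.9% (11 to 27.9%), against 2.36% of all protein-coding genes. The conservative list of 1062 peaks gave the same 14 and rpl-16, or 19.2% against 1.95%. In the own list of replicate 1 it was 6 members, 7.69% against 0.556%, and in that of replicate 2 it was 12, 15.4% against 0.791%. All of the members in either own list were among the 14, and 6 were in both own lists, namely rpl-3, rpl-12, rpl-15, rpl-20, rpl-35 and rps-26. In 5 of these the same peak was in both, whereas at rps-26 the own lists held different peaks, described below. Replicate 2 alone held rpl-7A, rps-1, rps-16, rps-19, rps-23 and rps-24, while rpl-24.2 and rpl-29 were in neither own list.

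The strongest promoter peak of any protein-coding gene was that of rpl-3, whose product lies close to the peptidyl transferase centre in yeast and human ribosomes. Its signal value was 284.1 in the main list, the fifth highest of all main-list peaks, with the summit 291 bp upstream of the 5' end. The own ranked lists gave 120.7 for replicate 1 and 169.9 for replicate 2. The rpl-3 value stood well above the next members in both replicates.

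Below rpl-3 came 4 further large-subunit genes whose peaks were in both own lists. The gene rpl-12 encodes a protein at the base of the stalk that binds translation factors in yeast and human ribosomes, and it had a main-list value of 200.9, with 72.9 in replicate 1 and 125.0 in replicate 2. The summit lay 30 bp upstream of the 5' end. The gene rpl-20 had a main-list value of 198.6, with 69.8 in replicate 1 and 129.2 in replicate 2. Its summit was 297 bp upstream, but the 5' end of Y17G9B.5 on the other strand was nearer, at 165 bp. A main-list value of 171.6 was found 360 bp upstream of rpl-15, with 61.9 in replicate 1 and 114.6 in replicate 2. The peak of rpl-35, which encodes a protein near the exit of the peptide tunnel, lay 449 bp upstream and had 156.5 in the main list, 54.8 in replicate 1 and 105.1 in replicate 2. In each of these genes the replicate 2 value was above the replicate 1 value, but the scales of the own lists are not stated to be comparable.

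The sequences below are the 101 bases centred on the summits of 8 of these peaks, shown 5′ to 3′ in the direction of the member's transcription. They are chosen because 7 of them share the 8-base words described next, set in capitals, and the eighth, rps-24, shows a repeat. All come from the RefSeq genome sequence of WBcel235, the assembly named ce11 in the files. The windows are chrIII:3867513-3867613 (forward strand) for rpl-3, chrIV:4750025-4750125 (reverse) for rpl-20, chrIII:4475609-4475709 (forward) for rps-1, and chrIV:12391290-12391390 (reverse) for rps-23. The others are chrIV:654886-654986 (reverse) for rpl-15, chrIV:13240631-13240731 (reverse) for rpl-12, chrIII:7854635-7854735 (forward) for rpl-35 and chrIV:385450-385550 (forward) for rps-24.
rpl-3: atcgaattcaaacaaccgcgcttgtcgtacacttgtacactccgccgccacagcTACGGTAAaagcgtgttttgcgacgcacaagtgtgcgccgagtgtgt
rpl-20: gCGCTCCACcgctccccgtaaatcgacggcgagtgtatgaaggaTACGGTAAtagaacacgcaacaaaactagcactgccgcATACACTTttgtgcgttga
rps-1: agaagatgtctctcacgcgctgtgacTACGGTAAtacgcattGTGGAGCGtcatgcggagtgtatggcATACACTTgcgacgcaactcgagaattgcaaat
rps-23: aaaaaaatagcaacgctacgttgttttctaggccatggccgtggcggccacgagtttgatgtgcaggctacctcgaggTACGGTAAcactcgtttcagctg
rpl-15: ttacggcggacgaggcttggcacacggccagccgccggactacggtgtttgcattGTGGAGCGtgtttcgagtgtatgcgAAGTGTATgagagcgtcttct
rpl-12: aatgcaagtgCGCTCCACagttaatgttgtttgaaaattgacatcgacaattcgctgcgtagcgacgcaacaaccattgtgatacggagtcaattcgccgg
rpl-35: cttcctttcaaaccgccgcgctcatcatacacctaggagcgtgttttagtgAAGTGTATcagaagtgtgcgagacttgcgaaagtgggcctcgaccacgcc
rps-24: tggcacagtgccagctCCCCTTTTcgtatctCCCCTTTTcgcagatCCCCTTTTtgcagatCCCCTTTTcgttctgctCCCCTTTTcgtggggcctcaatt

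The letters that the 7 windows share were found by counting every 8-base word in the 16 member windows, so they were chosen after the sequences had been read. In all, 3 words stood in the windows of at least 4 members, and rpl-20 and rps-1 held every one of them. TACGGTAA (TTACCGTA on the other strand) was at the summits of rpl-3, rpl-20, rps-1 and rps-23. It stood in the promoter windows of 14 members, 17.9%, against 4.1% of all protein-coding promoters of the same length. Outside the 14 members of the main list, which had supplied the word, it stood in 10 of 64 promoter windows, 15.6%. The copy between the divergent genes rpl-24.1 and rps-10 counts for both, so these are 13 distinct copies over all members and 9 outside the main list. Of the 10 carriers outside the list, rpl-18 and rps-18 had no ranked peak in the window. The highest signal values of the others ran from 14.6 at rps-17 to 54.3 at rpl-11.2. Over the main list 8 of 1419 windows, 0.564%, held the word. Measured from each of the 14 members' 5' ends, the word lay upstream, 86 to 650 bp away with a median of 282 bp.

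The word CGCTCCAC (GTGGAGCG) was in the 101-base windows of rpl-12, rpl-15, rpl-20 and rps-1. It stood in 7 member promoters, 8.97%, against 2.44% of all promoters, and in 16 of the 1419 main-list windows. Of those 7 promoters 4 belong to the members whose windows supplied the word, and among the members outside the main list it stood in 3 of 64, 4.69%. AAGTGTAT (ATACACTT) was in the 101-base windows of rpl-15, rpl-20, rpl-35 and rps-1, which are 4 of the 5 main-list windows with this word. It was no more frequent in member promoters, at 5.13%, than in all promoters, at 5.32%, and stood in none of the 64 promoters outside the main list. The peak of rps-24 differed from these in that its summit lay in a run of 5 copies of CCCCTTTT, and the central 36 bases occur 60 times in the genome. Its whole window of 101 bases occurs once, as do those of all 16 member summits, and the central 36 bases of the other 15. Since read length is not known here, it is uncertain whether the reads of the rps-24 peak could be placed.

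The C/EBP site was in none of the 16 member windows. TTRCRYAA was thus at 0% (0 to 19.4%), against 25 of 1419 main-list windows, 1.76%. In the whole promoter windows it stood in 13 of 78 members, 16.7%, against 28.5% of all promoters. The palindrome TTGCGCAA is a form of TTRCRYAA, so its absence from the member windows follows from that count and is no separate result. It stood in 0.352% of all main-list windows. The related bZIP sites TGATGCAA and TGACGCAA, the E-box CACGTG and the run TTTTTTTT were likewise in none of the member windows. Their shares over all main-list windows were 0.775%, 0.564%, 3.31% and 3.81%, in that order. The GATA factor sites TGATAAG and TGATAAA were in 1 member window each, at rps-16 and rpl-24.2, against 0.846% and 1.69% of all main-list windows. At such shares 16 windows are too few to tell the members from the rest of the list for any of these sequences. Both strands were searched for each sequence. GC content in the member windows had a median of 51.5%, against 48.5% in all main-list windows.

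The small-subunit members of the main list had lower values than the leading large-subunit ones. The gene rps-23, whose product is part of the decoding centre, had a main-list value of 124.5, with 48.2 in replicate 1 and 77.8 in replicate 2. Its summit lay 287 bp upstream and 247 bp from the 5' end of dpm-3. The peak of rps-1 was 259 bp upstream at a main-list value of 121.1, with 50.4 and 69.2 in replicates 1 and 2, and it lay over the non-coding RNA genes F56F3.10 and F56F3.11. The peak of rps-19 was 266 bp upstream at 115.5, with 38.5 and 70.7, and 179 bp from the 5' end of hsr-9. The summit of rps-24 lay 387 bp upstream at 81.4, with 28.5 and 55.2 in replicates 1 and 2. All of these values in replicate 1 were below those of rpl-3, rpl-12, rpl-15, rpl-20 and rpl-35.

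Only rps-16 and rps-26 had 2 main-list summits in the window. At rps-16 the stronger one, with a main-list value of 109.5, lay 134 bp downstream of the 5' end in the coding sequence of the gene, the 1 member summit on that side. The weaker, at 70.8, lay 403 bp upstream in the coding sequence of fib-1, the fibrillarin gene, whose product methylates ribosomal RNA. The genes fib-1 and rps-16 are on the same strand with 109 bp between them. At rps-26, whose product lies near the messenger RNA exit channel, a peak of 79.0 was 986 bp upstream in the coding sequence of tmem-107. A second peak of 70.4 was 387 bp upstream, 70 bp from the 5' end of tmem-107, and it overlapped the snoRNA gene F39B2.14. The peak at 986 bp had 37.0 in replicate 1 and 56.4 in replicate 2, and was in the own list of replicate 2 only. The peak at 387 bp had 54.8 in replicate 1 and 31.4 in replicate 2, and was in the own list of replicate 1 only. No rps-26 peak was thus in both own lists, and the peak at 387 bp was the 1 member peak of the 16 outside the conservative list.

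The remaining large-subunit members were rpl-7A, rpl-24.2 and rpl-29. The peak of rpl-7A had 132.1 in the main list, 34 bp upstream, and the own ranked lists gave 33.9 for replicate 1 and 96.8 for replicate 2. The gene rpl-24.2 is the counterpart of a yeast and human ribosome assembly factor, and its peak had 97.0, 166 bp upstream inside C03D6.1. The peak of rpl-29 had 80.2, 293 bp upstream, with 34.7 in replicate 1 and 49.2 in replicate 2. In replicate 1 the values of rpl-7A and rpl-29 were among the lowest of the 14 members, while in replicate 2 rpl-7A was next to rpl-35.

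**Figure D1:**
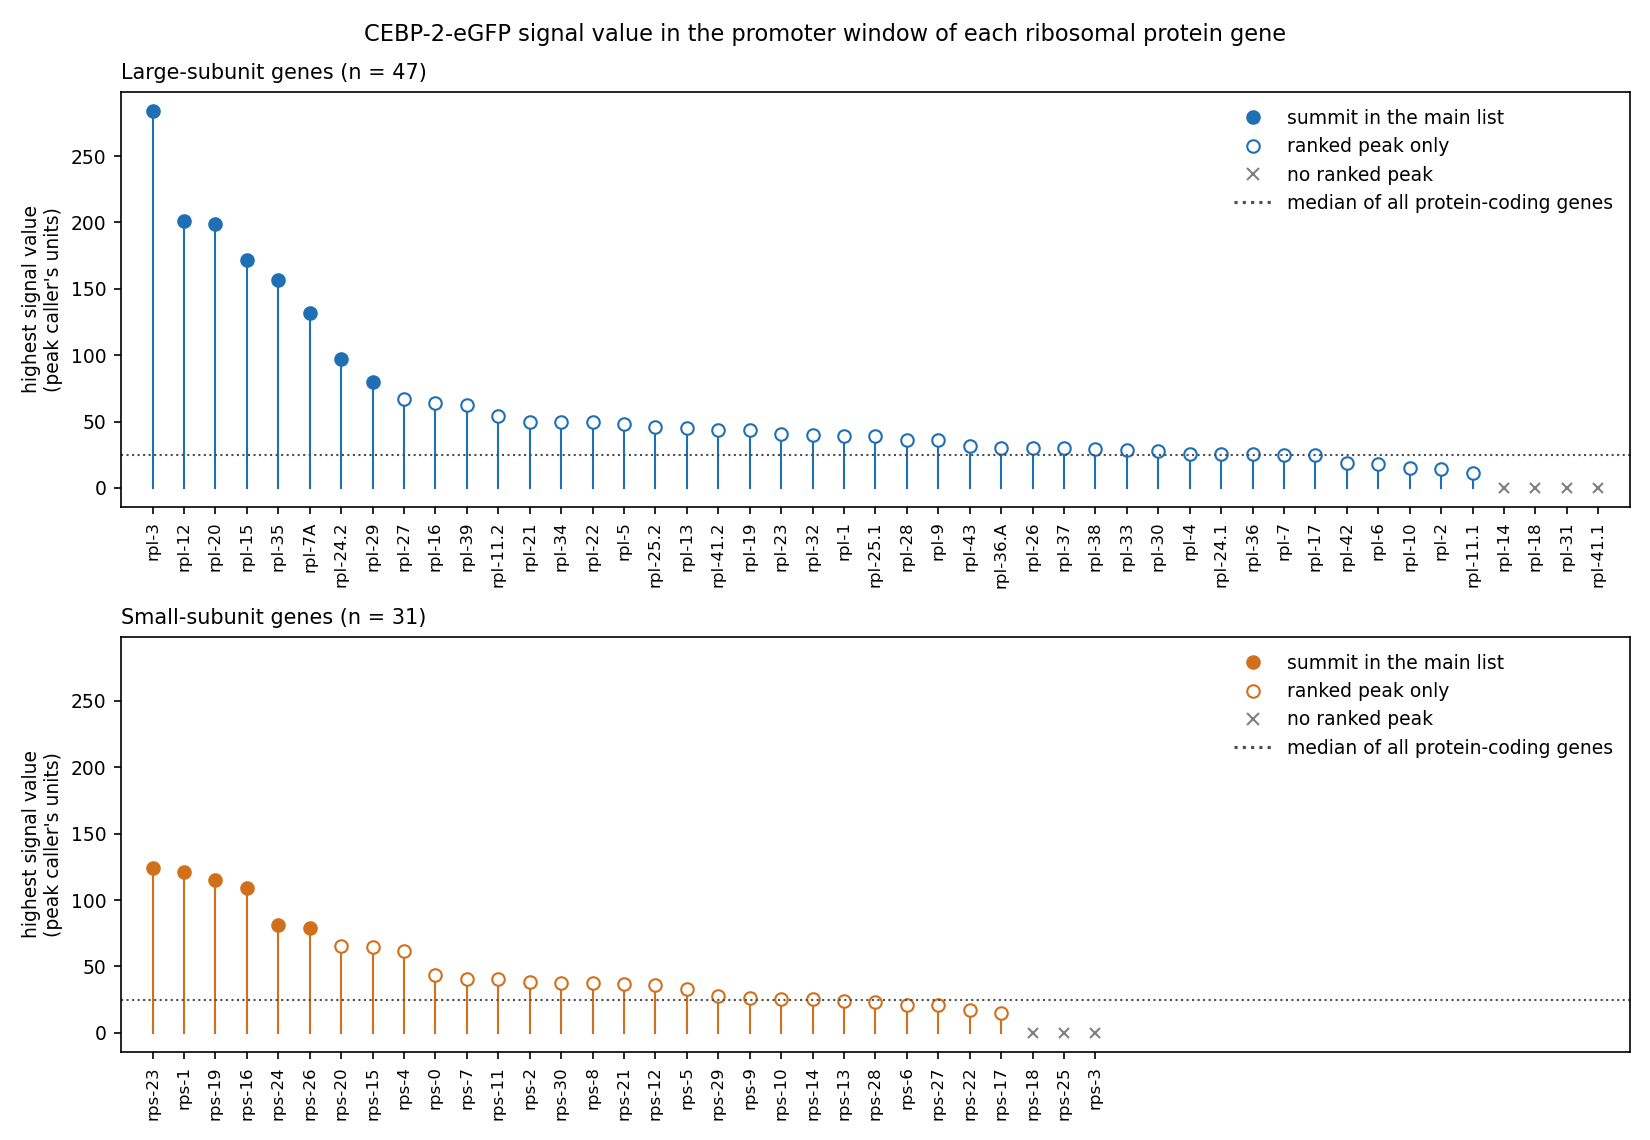
Highest signal value of any ranked peak in the promoter window of each of the 78 ribosomal protein genes, in the peak caller's units, with the 47 large-subunit genes above and the 31 small-subunit genes below. Filled points have a summit in the main list, crosses have no ranked peak, and the dotted line is the median of all protein-coding genes at 24.7; values fall steeply from rpl-3 at 284.1, and 59 of the 78 genes lie above the dotted line.

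Most of the family had ranked peaks, at lower values than the main-list members. A ranked peak was in the window of 71 of 78 members, 91%, against 76.6% of all genes. With genes that had no ranked peak counted as 0, the median of the highest value per gene was 37.1 over members and 24.7 over all genes. Of the 78 members 59 were above the all-gene median. Without the 14 members of the main list, 57 of 64 had a ranked peak, 89.1%, 45 were above the all-gene median, and their own median was 30.3. The 7 members with no ranked peak in the window were rpl-14, rpl-18, rpl-31, rpl-41.1, rps-3, rps-18 and rps-25. At the other end, 10 members were among the 100 genes of highest value and 20 among the first 1000. By the own ranked lists 8 members were among the 100 highest genes in replicate 1 and 9 in replicate 2.

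Members just outside the main list had values slightly under those just inside. Of those inside, rps-24 had a −log10 of the global irreproducible discovery rate (IDR) of 2.19, rpl-29 had 2.42 and rps-26 had 2.72. Of those outside, rps-15 had a value of 1.99 and a signal of 65.0, rps-20 had 1.97 and 65.3, rpl-16 had 1.91 and 64.2, and rpl-27 had 1.84 and 66.9. The genes rpl-16 and rpl-27 had their summits 123 and 67 bp downstream of the 5' end. With a signal of 62.6 and a −log10 IDR of 0.72, rpl-39 showed that a similar signal value can rank low in reproducibility. The main list had no score under 830, and no member peak at or above that score was left out of it.

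The replicates ordered the main-list members alike and the others less so. A peak in both own ranked lists was found for 45 members, and in neither for 8. Across the 45 genes Spearman's rho between the replicates' highest values was 0.762. It was 0.763 over the 14 members of the main list and 0.378 over the other 31. These correlations describe genes that share the same 2 libraries, and the main list was called on both replicates together, so no p is given.

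In replicate 1 the 14 main-list members ranged from 28.5 to 120.7 with a median of 49.3, against 4.7 to 44.8 with a median of 15.8 over the 41 other members with a peak. In replicate 2 they ranged from 49.2 to 169.9 with a median of 74.3, against 3.5 to 50.4 with a median of 24.1 over 46 others. Since the main list was called on both replicates together, these values are not independent of the selection, and the separation is no separate result. The ranges overlapped slightly in both replicates. The overlap was due in replicate 1 to rps-15 at 44.8, rpl-21 at 37.3, rpl-16 at 32.2 and rps-11 at 29.1, and in replicate 2 to rpl-27 at 50.4.

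**Figure D2:**
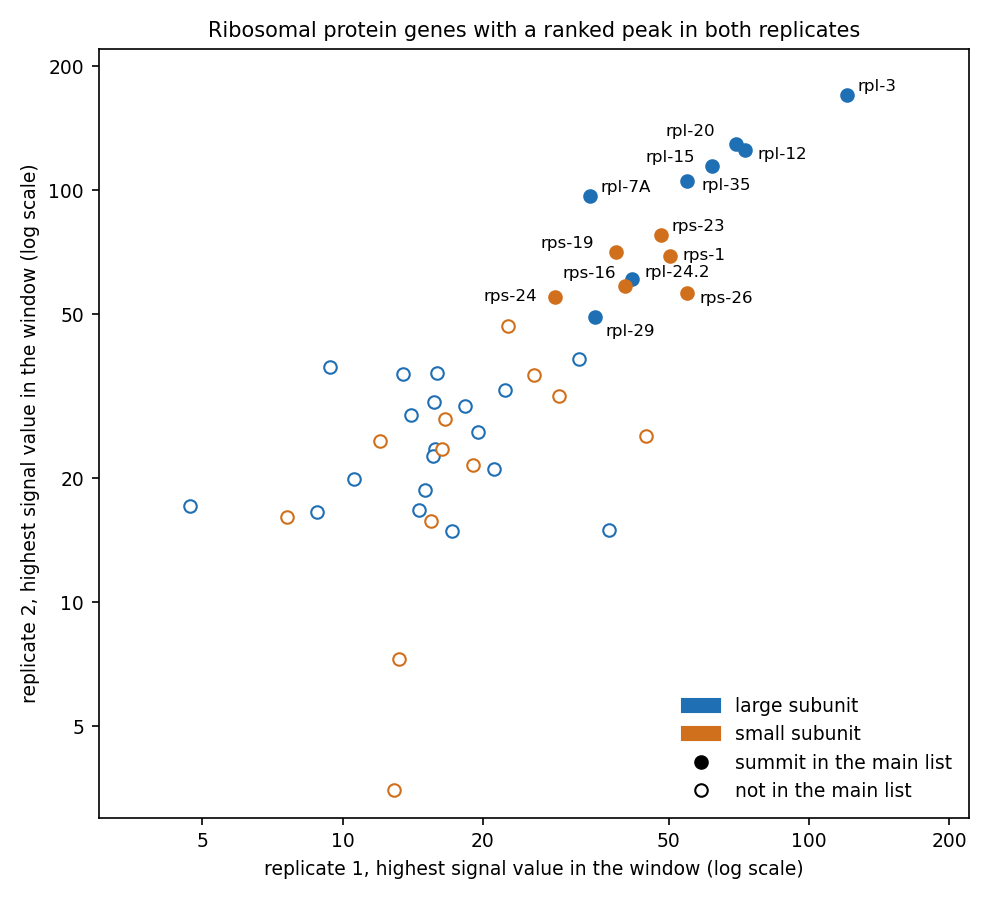
Highest signal value in the promoter window in the own ranked list of replicate 1 (horizontal) and of replicate 2 (vertical), both on log scales, for the 45 ribosomal protein genes with a peak in both. Filled points are the 14 members of the main list, labelled by gene, which take the upper right corner with rpl-3 at 120.7 and 169.9; open points are the other 31. The highest value may belong to different peaks, as at rps-26 (54.8 and 56.4).

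The shares of the 2 subunits in the main list lay within each other's intervals. It held 8 of 47 large-subunit genes, 17% (8.89 to 30.1%), and 6 of 31 small-subunit genes, 19.4% (9.19 to 36.3%). In the own list of replicate 1 the counts were 5 large-subunit and 1 small-subunit gene, and in that of replicate 2 they were 6 and 6. The median of the highest value per gene was 38.8 over large-subunit and 36.7 over small-subunit genes. The 6 highest members were all large-subunit genes, and rps-23 was the highest of the small subunit.

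Summits at members were most frequent in a band some way upstream of the 5' end. Of the 16 main-list summits in member windows 15 were upstream, and 11 lay 250 to 450 bp upstream, 68.8% (44.4 to 85.8%). Other genes gave 480 pairs of a summit and a window, of which 89 lay there, 18.5% (15.3 to 22.3%). A summit in the windows of several genes counts once for each. The promoter windows of all protein-coding genes held 417 distinct main-list peaks, so the pairs are not all separate summits, though the interval treats them so. The band was chosen after the positions had been seen, and 6 of the member summits lay between 250 and 300 bp upstream. Of the 16 peaks 8 overlapped no annotated gene, and for 11 the member's own 5' end was the nearest. Of the 16 summits 9 also lay in the window of another protein-coding gene, so those peaks cannot be assigned to 1 gene by position.

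**Figure D3:**
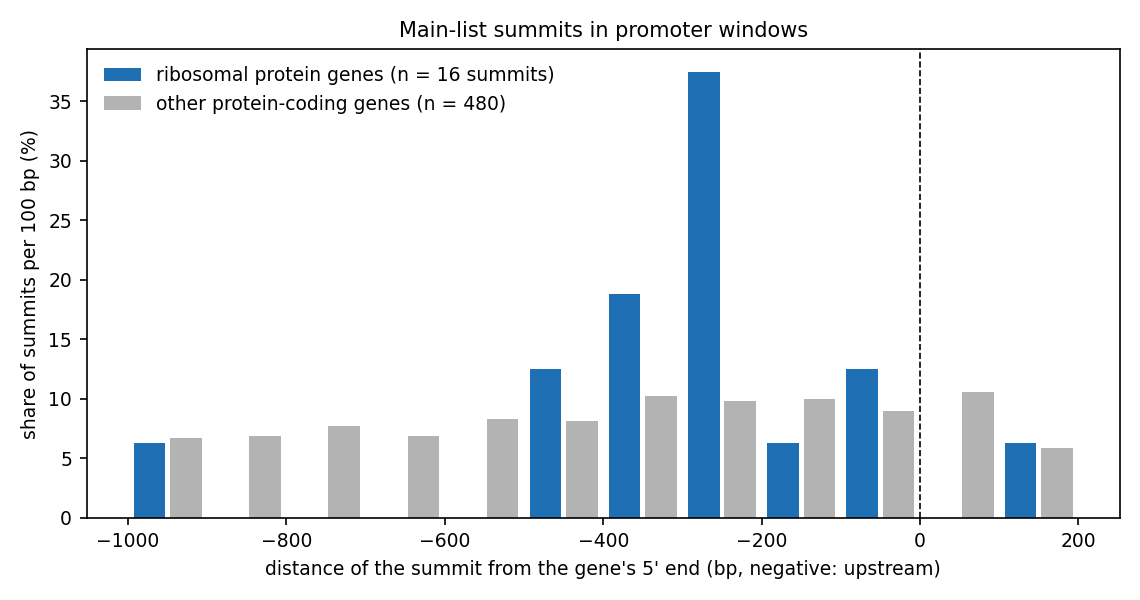
Position of main-list summits relative to the 5' end (horizontal, bp, upstream negative) as the share in each 100 bp step. Left bars are ribosomal protein genes (16 summits). Right bars are other protein-coding genes (480 pairs of a summit and a gene's window, not distinct summits). Member summits are most frequent 200 to 300 bp upstream, with 37.5% of them, where the other genes have 9.79%.

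Members with and without a divergent neighbour were both found in the main list. Among the 47 members with an opposite-strand 5' end within 1000 bp upstream 8 were in the list, 17% (8.89 to 30.1%). Among the 31 without one 6 were, 19.4% (9.19 to 36.3%). Over all protein-coding genes the share was 2.36%, and it was not computed by divergent neighbour. In 3 cases the divergent neighbour was itself a ribosomal protein gene, and none of these genes was in the main list. So few genes cannot be told apart from the 17.9% over all members. The pair rpl-24.1 and rps-10 shared 1 peak of 25.6 as the highest of both genes, and so did rpl-36 and rps-14, also at 25.6. For rpl-39 and rps-30 the values were 62.6 and 37.6.

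Chromosome IV carried 7 of the 14 members in the main list. These were 7 of its 17 ribosomal protein genes, 41.2% (21.6 to 64%), against 3.51% of all genes on IV. The own lists held 3 of the 17 in replicate 1 and 6 in replicate 2. On the other chromosomes 7 of 61 members had a main-list summit, 11.5%, against 2.13% of genes there. Chromosome I had 3 of 23 members in the list, III had 3 of 18, V had 1 of 8, and neither II with 10 members nor X with 2 had any. The number of other main-list peaks within 50 kb of the 5' end, leaving out those of the member itself, had a median of 2 (0 to 13) for members in the list and of 1 (0 to 8) for the others. The ranges overlap, and the part of this density in the result was not tested.

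The share of snoRNA hosts in the main list lay within the interval of the other members. There were 13 such members, with 19 snoRNA genes that all lay in introns. Of the 13 hosts 3 had a main-list summit in the promoter window, namely rpl-7A, rpl-15 and rps-23, 23.1% (8.18 to 50.3%), against 11 of the 65 members without a snoRNA gene, 16.9% (9.72 to 27.8%). Over all genes that host a snoRNA gene the share was 10.4%. In the own list of replicate 1 only rpl-15 of the hosts remained, and in that of replicate 2 all 3 did. The snoRNA genes themselves were overlapped by no main-list peak in any member, whereas 59 of all 346 nuclear snoRNA genes were, 17.1%. A ranked peak overlapped 11 of the 19, with a highest signal value of 55.5.

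Few members lie close behind a gene of the same strand. Taking 200 bp or less between the upstream gene's 3' end and the member's 5' end on the same strand, there were 4, which is an arrangement by distance and not an annotated operon. Of these rps-16, behind fib-1, was in the main list, against 4.25% of all genes so placed. The others were rpl-16 at 105 bp from lias-1, rpl-25.1 at 97 bp from glit-1 and rpl-27 at 119 bp from C53H9.2. The gene rpl-16 was in the conservative list and none of the 3 was in the main one.

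Peaks also stood at the 3' ends of ribosomal protein genes, a pattern noticed only after the promoter values had been seen. A main-list summit within 200 bp of the 3' end was found for 17 of 78 members, 21.8% (14.1 to 32.2%), against 1.26% of all protein-coding genes. The own list of replicate 1 gave 10 members, against 0.365% of all genes, and that of replicate 2 gave 5, against 0.335%. Of the 17 main-list summits 15 lay past the end of the gene, 46 to 187 bp away with a median of 153 bp. The downstream side was also the more frequent one over all genes. Of the 251 genes with a 3' end summit, 194 had one on that side and 60 on the upstream side. Farther out, more than 200 and up to 1000 bp past the 3' end, 10 of 78 members had a summit. That was 12.8% (7.12 to 22%), against 1.7% of all genes, so the higher share was not confined to the 200 bp around the 3' end. In the gene body, more than 200 bp from either end, 2 members had a summit, rpl-3 and rpl-18, 2.56% against 2.94% of all genes. Ribosomal protein genes are short, with a median length of 753.5 bp against 2027 bp over all protein-coding genes, so their bodies offer less room.

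The strongest of these peaks was at rps-4, whose promoter was not in the main list. Its main-list value was 158.8, with 66.8 in replicate 1 and 89.3 in replicate 2, and the summit lay 184 bp downstream of the 3' end. At rpl-27 the value was 130.4, with 62.4 in replicate 1 and 65.2 in replicate 2. At rpl-12 it was 126.1, with 57.3 in replicate 1 and 84.9 in replicate 2. These 3 genes had their 3' end peak in both own lists. Over all 17 genes the values ran from 61.3 to 158.8 with a median of 98.0, against a median of 118.3 for the 16 promoter peaks. The other 14 genes were rpl-1, rpl-3, rpl-7A, rpl-11.1, rpl-14, rpl-15, rpl-20, rpl-26, rpl-29, rpl-32, rps-2, rps-3, rps-23 and rps-28. At rpl-14 the main-list value was 77.7, with 22.6 in replicate 1 and no overlapping ranked peak in replicate 2.

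Many of these positions also fall in promoter windows of neighbouring genes. Of the 17 summits 10 lay in the promoter window of another protein-coding gene, such as tag-115 behind rpl-12 and egl-30 behind rpl-27. The other 7 lay in none. Of these the summits of rpl-3, rpl-14, rpl-32 and rps-4 lay inside a neighbouring gene, the last 204 bp inside the 5' end of Y43B11AR.3, just past its promoter window. Those of rpl-7A, rpl-11.1 and rps-2 lay in no other protein-coding gene. None overlapped a tRNA, snoRNA or snRNA gene. In the conservative list the same peak was present for 14 of the 17, the own lists held a peak at 8 of them in replicate 1 and at 5 in replicate 2, and 9 of the 17 genes were on IV. Neither the share on IV nor that in neighbouring promoter windows was computed over all genes with a 3' end summit.

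**Figure D4:**
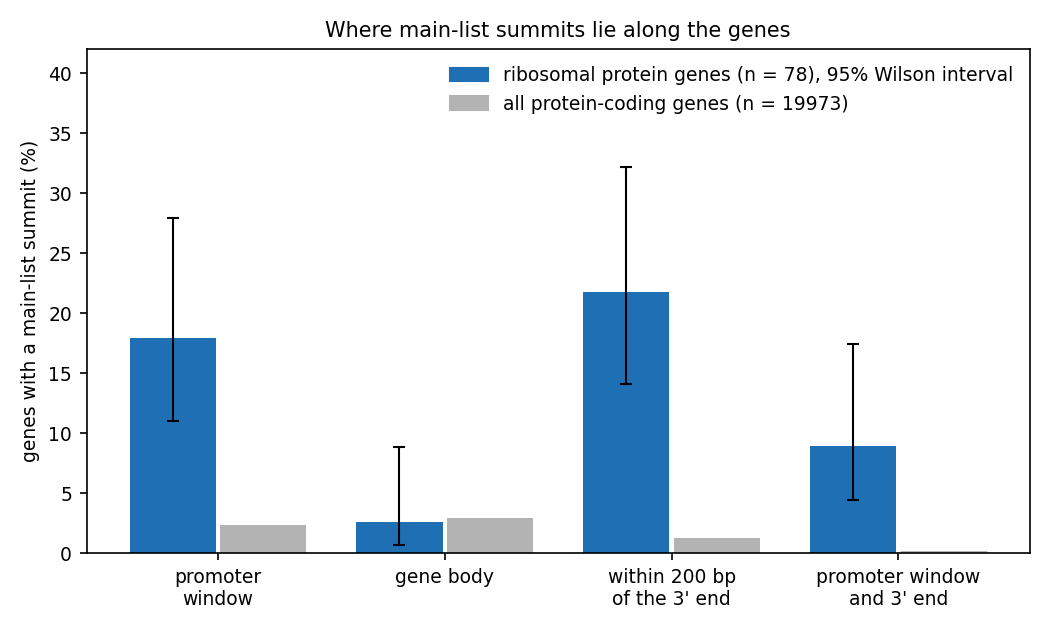
Share of genes with a main-list summit in the promoter window, in the gene body, within 200 bp of the 3' end, and in both the promoter window and at the 3' end, for the 78 ribosomal protein genes (left bars, with 95% Wilson intervals) and all 19973 protein-coding genes (right bars). Ribosomal protein genes reach 17.9% and 21.8% at the ends and 2.56% in the body, against 2.36%, 1.26% and 2.94% of all genes.

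A main-list summit at both ends was found for 7 members, 8.97% (4.42 to 17.4%), against 0.16% of all genes. They were rpl-3, rpl-7A, rpl-12, rpl-15, rpl-20, rpl-29 and rps-23. In 6 of them the promoter peak was the higher one in the main list, by 284.1 against 91.4 at rpl-3 and by 198.6 against 75.4 at rpl-20. It was also the higher one in these 6 in replicate 2, but in only 4 in replicate 1. There rpl-7A had 33.9 at the promoter and 38.7 at the 3' end, and rps-23 had 48.2 at the promoter and 61.4 at the 3' end. At rpl-29 the order was turned in the main list and in both replicates, with main-list values of 80.2 at the promoter and 118.7 behind the 3' end, where the summit lay 187 bp past the gene and 71 bp from the 5' end of thoc-7.

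**Figure D5:**
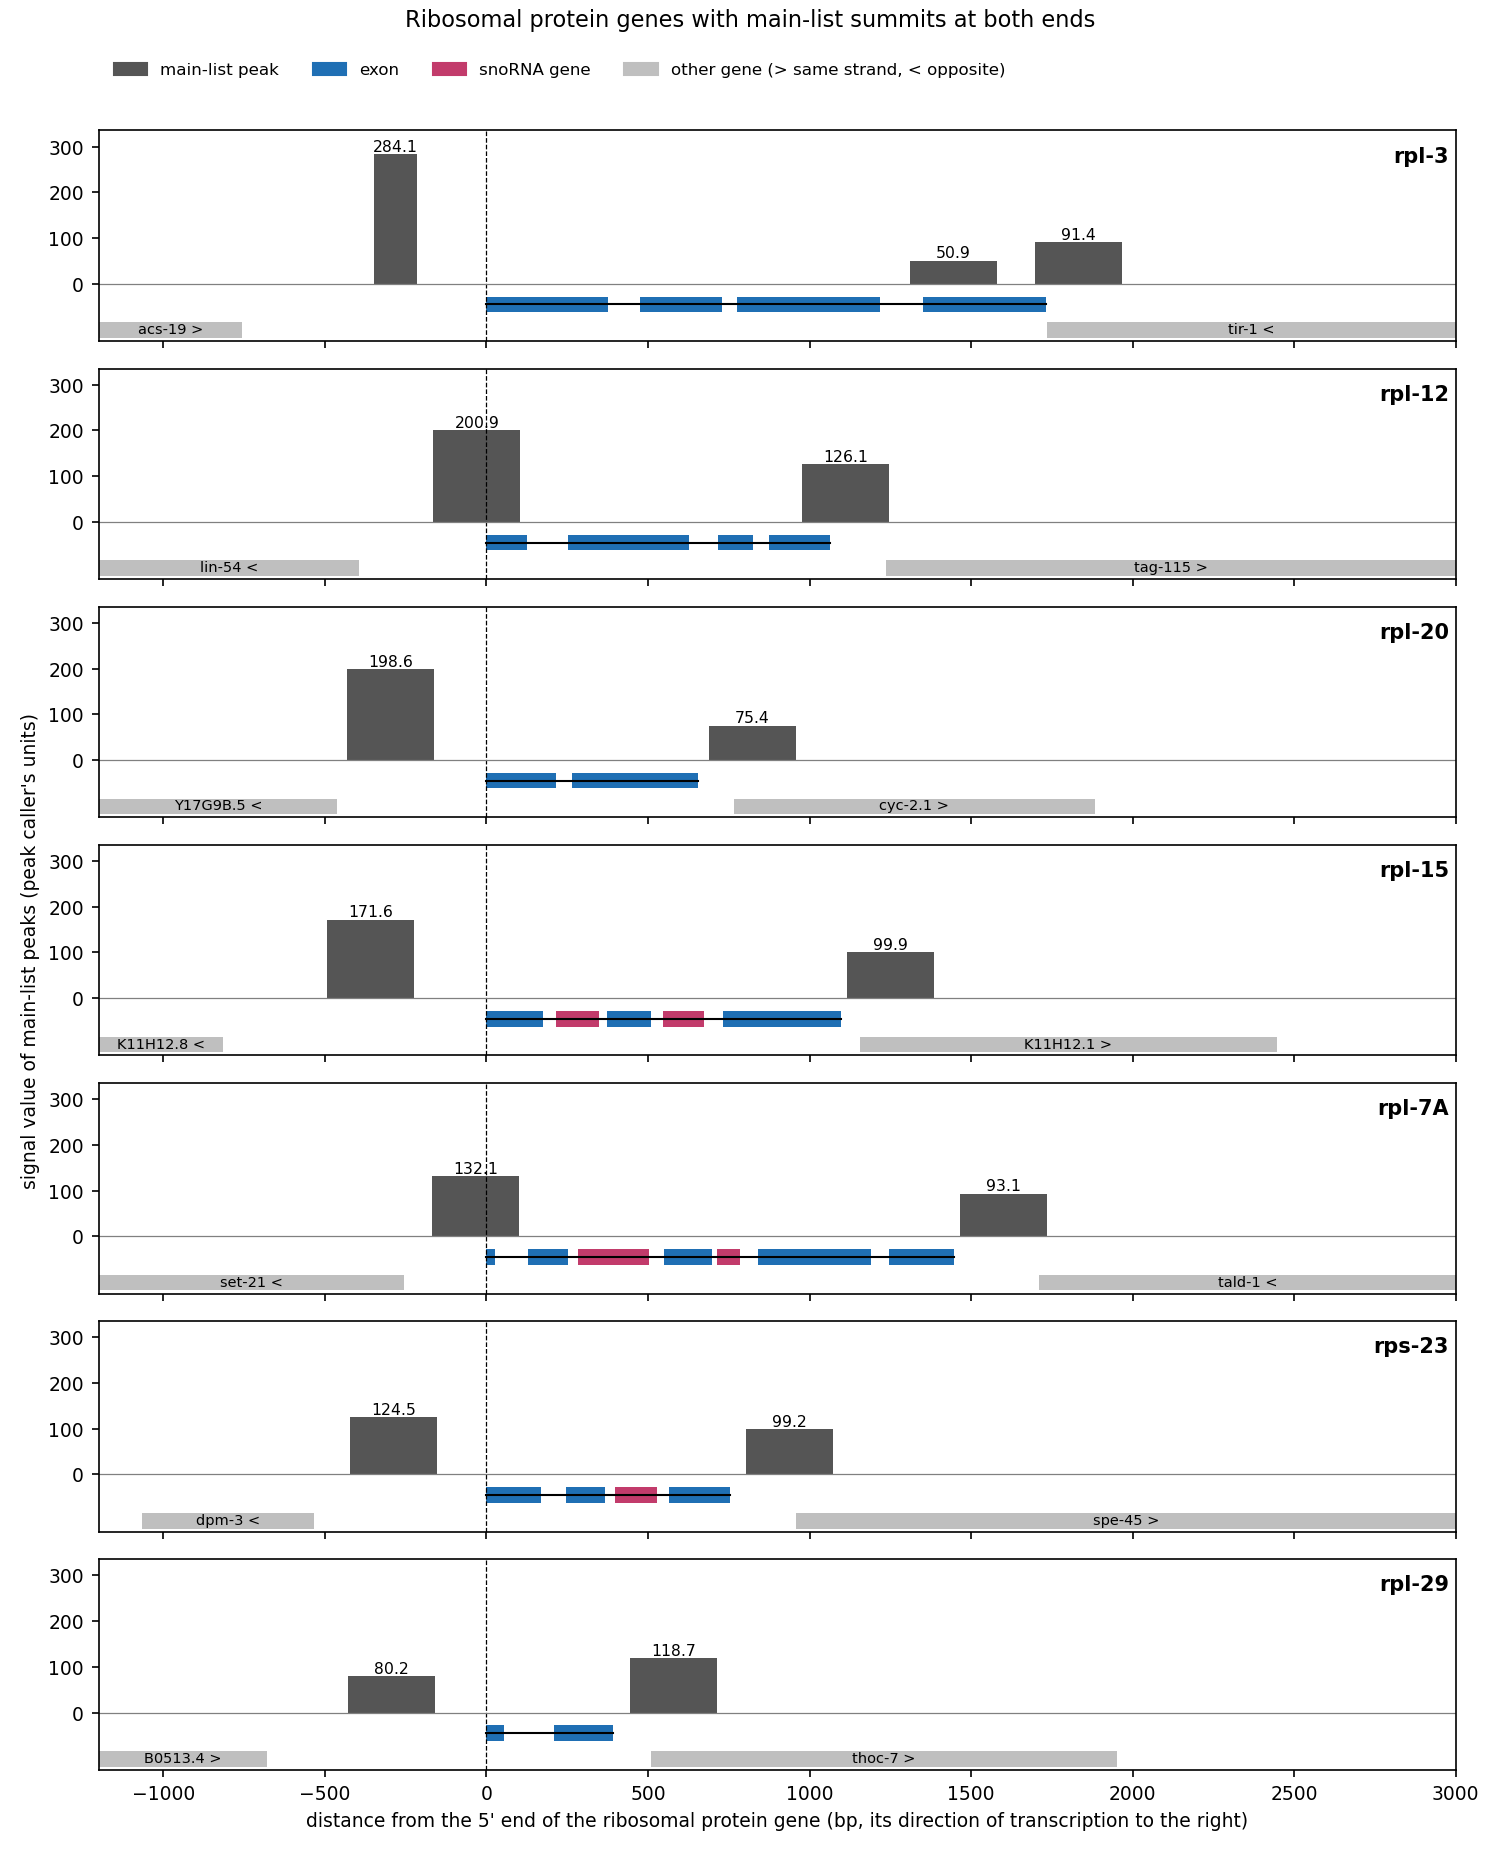
Maps of the 7 ribosomal protein genes with main-list summits at both ends, drawn to scale by distance from the 5' end (horizontal, bp); grey columns are main-list peaks with their signal value as height, and bars below show exons, hosted snoRNA genes and neighbouring genes. Peaks flank the genes, the snoRNA genes in the introns of rpl-15, rpl-7A and rps-23 lie under no main-list peak, and rpl-3 has a further peak of 50.9 over its last intron and exon.

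The share of ribosomal protein genes in the main list was set beside that of other gene lists of the translation apparatus. It was 14 of 78 ribosomal protein genes, 17.9%, against 5 of 41 translation factors, 12.2% (5.32 to 25.5%), 3 of 46 nucleolar and ribosome biogenesis genes, 6.52% (2.24 to 17.5%), and 2 of 70 mitochondrial ribosomal protein genes, 2.86% (0.787 to 9.83%). None of 32 aminoacyl-tRNA synthetase genes was in it, which allows a share of up to 10.7%. Among 5 stalk and ubiquitin-fused ribosomal proteins, which the symbol rule leaves out, 1 was in the list. The nuclear respiratory chain had 6 of 41, 14.6% (6.88 to 28.4%), and the histones had 8 of 72, 11.1% (5.74 to 20.4%). The interval of the mitochondrial ribosomal proteins and that of the synthetases lie below the interval of the ribosomal proteins, those of the other lists overlap it, and the differences were not tested, since the list had been chosen with earlier results of these data known. By its own list replicate 1 gave 6 of 78 ribosomal protein genes, and replicate 2 gave 12. For the translation factors these counts were 1 and 2 of 41, and for the nucleolar and biogenesis genes 1 and 3 of 46. Histones had 2 and 1 of 72, mitochondrial ribosomal proteins 1 and 1 of 70, and the respiratory chain 0 and 1 of 41. The 32 synthetases and the 5 stalk and ubiquitin-fused proteins had none in either replicate. These counts are small, and their differences were not tested.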

How the data were processed

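Peaks were called by the authors and deposited as lists on the build ce11. Which aligner and peak caller were used is not given in the sources used here. Signal values deposited with the peaks come from the authors' peak caller, with a normalization that is not stated. The deposited score of each peak rises with reproducibility, and the −log10 of the global IDR is as the authors deposited it. Genes came from Ensembl release 115, and peaks of all 6 nuclear chromosomes end inside the reference lengths. The members and gene lists were chosen with earlier results of these data known, so counts and medians are given beside those of all genes with no test. Named were all members in a thresholded list and the 5 of highest signal outside the main list; those named for a 3' end peak, for lack of a peak, for their place next to another gene or for a shared word were chosen after their values had been seen. Matching of summits to windows, of peaks to the nearest 5' end and of motifs was tested on simulated data. Depth per sample is unknown. Alternatives were other lists, windows, 5' ends, assignment rules and filters. Python 3.11.15, numpy 2.4.6, pandas 2.3.3, SciPy 1.17.1 and matplotlib 3.10.9 were used.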

Additional observations from a re-analysis of the deposited data

How the results depend on the processing

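No paired analysis was possible because there is 1 group and no test. With the own list of 1 replicate in place of the main list, a count of 14 members became 6 to 12, of which 5 to 6 were large-subunit genes and 1 to 6 small-subunit genes. Hosts of snoRNA genes numbered 1 to 3, members close behind a same-strand gene 0 to 1, members with a 3' end summit 5 to 10, and the median signal of members was 14.8 to 23.3, on the scales of those lists. The conservative list gave 2 members close behind a same-strand gene in place of 1. A window of 500 bp upstream lowered the median signal to 29.9 over members, and with peaks of score 540 or more it was 0.0 over members and over all genes. The 3' end count was 3 of 78 members within 100 bp, against 0.35% of all genes. Within 500 bp it was 28 of 78, against 2.83%. Both alternatives were chosen after seeing the data. Under the other lists, windows, assignment rules and filters run, the count of 14 members became 11 (each peak given to the nearest 5' end) to 15, which is within 1.5 times, and the causes were not tested. With 2 replicates and no read counts, a lower rate of binding at the members outside the lists was not detectable.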
